A study of Mus musculus with 7 samples.

Results

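Focal adhesions are the places where integrins fasten a cell to the matrix and to its own actin filaments, and the genes described here encode their core proteins together with the actin cortex beneath the membrane. The set has 33 listed genes, and a row of the deposited expression table was taken as a member where its symbol equalled a listed one, alone or followed by the name of a microRNA. Of the 33, 32 were found in this way among the 56440 rows of the table. Of these, 32 were also among the 16889 genes tested, which had values of 10 or more in 3 or more libraries, so that no member was lost to the filter. The remaining gene, Pdlim7, shares a row whose first name is a microRNA, and its values are given apart.

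The RNA came from basal cells of the mouse mammary gland, isolated by fluorescence-activated sorting from fresh tissue on day 2 of lactation. Basal cells of the lactating gland are mainly myoepithelial cells, which contract around the milk-secreting luminal layer and touch the basement membrane. The 4 control libraries carry the genotype label Ctrl and are marked Blgneg in their titles, and the 3 mutant libraries carry the label a3a6KO and are marked DKO and Blgpos. The series addresses the role of the integrins that bind laminin in keeping up the secretory epithelium, and the submitters describe the libraries as biological replicates. From what is known of this mouse model, Blg denotes a Cre recombinase under the beta-lactoglobulin promoter, which is active in luminal cells, so that the sorted basal cells are neighbours of the cells meant to lose the integrin subunits α3 and α6. Blg was present in every mutant library and in no control library, and it cannot be told apart from the loss of the integrins. The sources used here do not give the strain, the age, the sorting markers or whether animals were pooled. The p-values of single genes set the difference between the groups against the spread between libraries of the same group, over these 7 libraries. Since pooling is not known, this spread need not be one between single animals.

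As background, an integrin that has bound the matrix is held in its active form by talin and kindlin, which grip its cytoplasmic tail. Talin pulled by actin opens sites for vinculin, the complex of ILK, PINCH and parvin joins through kindlin, and FAK and SRC phosphorylate scaffolds such as paxillin and p130Cas. On the actin side, α-actinin and filamin crosslink filaments, non-muscle myosin II pulls on them, and a family of small GTPases sets how much is built and how hard it contracts. In mammary basal cells this machinery transmits the force by which myoepithelial cells squeeze milk out, and actin polymerisation also feeds back on transcription, because free actin monomers hold back the coactivators of serum response factor (SRF), whose binding site is the CArG box.

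The values are normalised read counts, that is, counts per gene scaled by 1 factor for each library, and whole reads could be recovered from them. The libraries held between 9368418 and 21548279 recovered reads. Each member other than Tln2 had at least 101 recovered reads in every library, and Tln2 had at least 23. The 12 basal markers, led by Acta2, summed to 868369 to 1170021 in Ctrl and 970212 to 1084450 in a3a6KO. Of these, 4 lay above and 8 below a fold change of 1 (median log2 fold change -0.07), with Oxtr lowest at -0.57 (SE 0.26). The 13 luminal markers summed to 18997 to 33581 and to 18461 to 26322. Of the 12 luminal markers tested, 3 lay above and 9 below 1 (median -0.16). The 8 milk protein genes summed to 178476 to 1216122 in Ctrl and 127082 to 521479 in a3a6KO, with 8 of 8 below a fold change of 1 (median log2 fold change -0.99) and overlapping sums. The targeted genes were present in both groups: Itga6, which encodes subunit α6, had 10338, 10603, 7764 and 8678 in Ctrl replicates 1 to 4 against 9083, 8343 and 8574 in a3a6KO replicates 1 to 3. Itga3, which encodes subunit α3, had 718.9, 542.1, 465.5 and 653.6 in Ctrl against 493.8, 581.5 and 818.4 in a3a6KO, and the groups overlapped for both genes. These values cover whole genes, in which the loss of an exon need not show. Markers of other cells were present, and the sums of the 18 endothelial markers did not overlap, at 6219 to 9946 in Ctrl and 12285 to 18091 in a3a6KO. Of these markers 18 of 18 lay above a fold change of 1 (median log2 fold change 1.02), and none was at 0 in all libraries. The 10 pericyte and vascular smooth muscle markers summed to 1920 to 3524 in Ctrl and 3002 to 4082 in a3a6KO, with 9 of the 9 tested above 1 (median 0.53). The 6 red blood cell markers also did not overlap, at 25 to 359 against 612 to 787. The part of these cells in the members' values was not tested. In RNA from many cells, fewer cells of a type and less RNA per cell cannot be told apart.

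No member differed between a3a6KO and Ctrl at an adjusted p under 0.05 in limma (0 of 32), in a comparison that called 0.0% of all genes tested. On recovered reads, the quasi-likelihood test of edgeR likewise called 0 of 32 members and 0.0% of its 17168 genes. DESeq2 called 0 of 32 members and 72 of the 15162 genes to which it gave an adjusted p, which is 0.475%. The smallest adjusted p of any member was 0.551 in limma and 0.143 in DESeq2, in each tool for Nexn. At an unadjusted p under 0.05 limma had 2 members, 6.25% of the 32, against 6.32% of all genes tested. These were Nexn, with lower values in a3a6KO, where the background for that direction is 2.78%, and Fhl2, with higher values, where it is 3.55%. Leaving out Ctrl replicate 2 or a3a6KO replicate 1 left 1 such member, and leaving out a3a6KO replicate 3 gave 4. Across the fits with libraries left out, 749 to 1258 of all genes were at that p, against 1068 with none left out. The share of all genes is not given here for each fit, so these counts are not read as a result about the members. The values of the groups did not overlap in 5 members, or 15.6%, against 7.51% of all genes. Of these, 3 lay lower in a3a6KO (Nexn, Tes and Ptk2), where the background is 3.51%, and 2 higher (Fhl2 and Actg1), where it is 4.0%.

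Most members were measured closely enough to place a bound on any difference. The 95% interval of the log2 fold change, a3a6KO minus Ctrl and also called the log2 difference here, lay within -1 to 1, that is, within a doubling or halving, for 31 of 32 members. This held for 60.1% of all genes tested and for 89.2% of those with a mean value of at least 400, a level that 30 of the 32 members reach. The exception was Bcar1, with an interval of -0.10 to 1.02. Of the members 17 had a fold change above 1 and 15 below, and their median log2 fold change was 0.02, beside -0.004 over all genes and 0.02 over those with a mean of at least 400. The median size of the log2 fold change, without its sign, was 0.13 over the members and the same over genes with a mean of at least 400. Fold changes are on the scale of log2(value + 1).

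**Figure D1:**
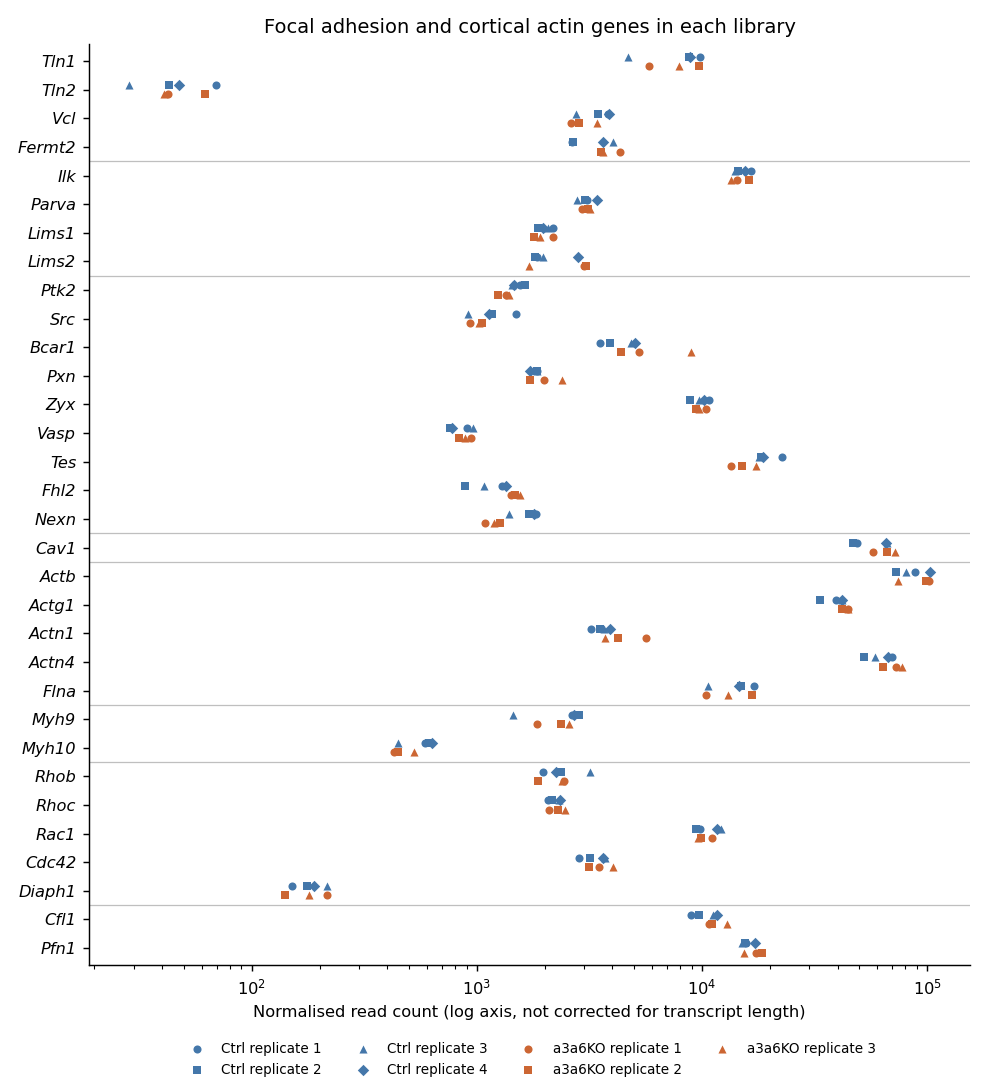
Normalised read count of each member in each library on a log axis, not corrected for transcript length, with the 4 Ctrl libraries in blue and the 3 a3a6KO libraries in orange and a marker shape for each replicate. The groups lie side by side for nearly every gene, and Nexn, Tes, Ptk2, Fhl2 and Actg1 are the 5 whose groups do not overlap.

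**Figure D2:**
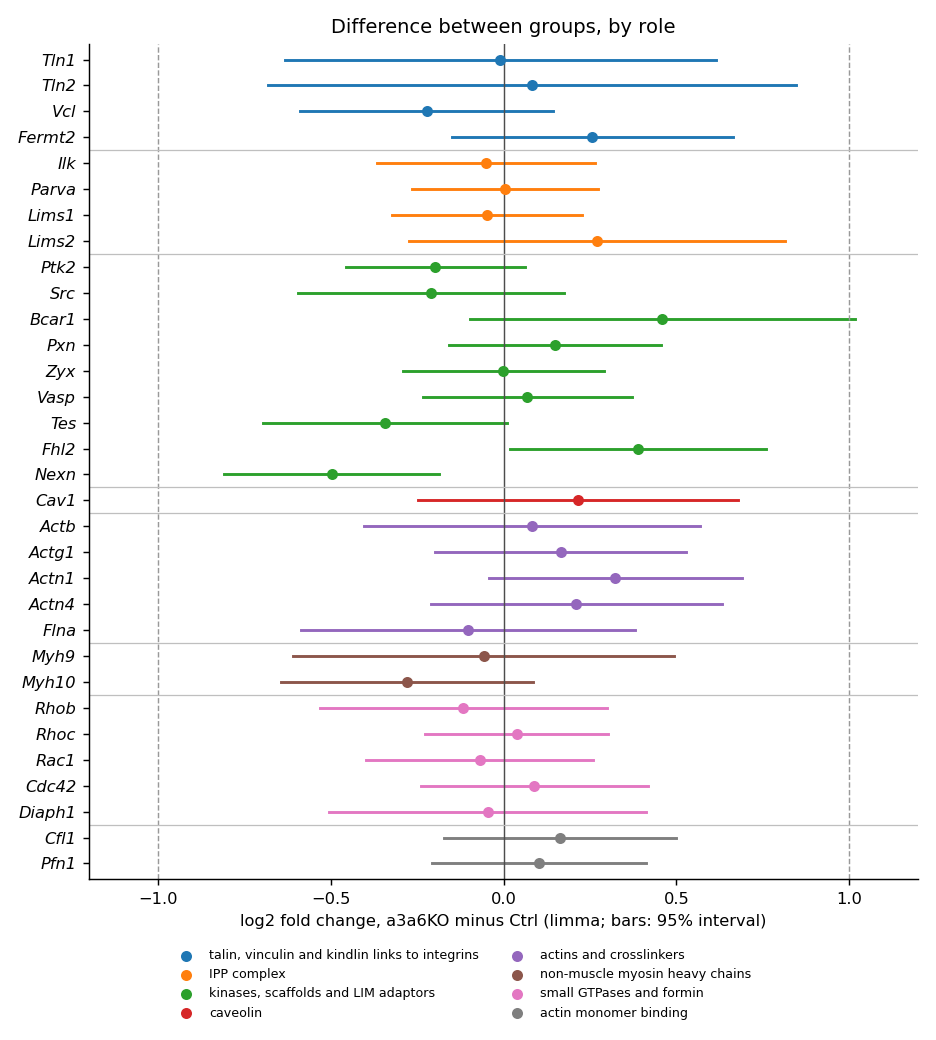
log2 fold change, a3a6KO minus Ctrl, of each member from limma, with 95% intervals and colours for roles; dashed lines mark a log2 fold change of -1 and 1. The intervals of 30 members include 0, and those of Nexn and Fhl2 do not before adjustment for the number of genes tested.

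The talin, vinculin and kindlin group, which links integrin tails to actin, had values on both sides of 1. Tln1, the talin of most tissues, had 9782, 8748, 4693 and 8798 in Ctrl replicates 1 to 4 against 5829, 9728 and 7919 in a3a6KO replicates 1 to 3. Ctrl replicate 3 and a3a6KO replicate 1 were low and the other 5 libraries lay together, so that the groups overlapped widely. This gave a log2 difference of -0.01 (SE 0.28, limma adjusted p = 0.996). Leaving out a3a6KO replicate 1 gave 0.19, and leaving out both low libraries gave -0.05. Tln2, the talin best known from muscle and brain, had 28.5 to 69.3 in Ctrl and 40.9 to 62.0 in a3a6KO. Per kilobase of exon in Ctrl, Tln1 stood at 954 ± 269 (SD, n = 4) and Tln2, the lowest member, at 3.77 ± 1.35 (SD, n = 4).

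Vcl encodes vinculin, which reinforces talin and actin links under force. It had 3833, 3439, 2742 and 3847 in Ctrl against 2622, 2839 and 3430 in a3a6KO. The lowest control lay among the mutants, and the log2 fold change was -0.22 (SE 0.16, limma adjusted p = 0.837). Fermt2, or kindlin-2, a kindlin of adherent cells outside blood, had 2645, 2685, 4023 and 3623 in Ctrl against 4303, 3555 and 3622 in a3a6KO. Ctrl replicates 1 and 2 were low and the other 5 libraries were at 3555 or more, with a log2 difference of 0.26 (SE 0.18).

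In the complex of ILK, PINCH and parvin, 3 of the 4 members were nearly level between the groups. Ilk, the pseudokinase at its centre, had 16540, 14385, 13956 and 15591 in Ctrl against 14305, 16122 and 13385 in a3a6KO, with a log2 difference of -0.05 (SE 0.14). Parva, its parvin, which binds actin, had 3088, 3005, 2779 and 3422 against 2941, 3099 and 3183, with a log2 difference of 0.004 (SE 0.12, 95% interval -0.27 to 0.27). The mutant values of both genes lay among the controls or just below them. Lims1, or PINCH-1, the LIM-domain adaptor that binds ILK, had 2170, 1869, 2079 and 1968 against 2167, 1792 and 1916, a log2 difference of -0.05 (SE 0.12).

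Lims2, or PINCH-2, its paralogue, varied far more. It had 1840, 1816, 1959 and 2807 in Ctrl against 2986, 3060 and 1701 in a3a6KO. Ctrl replicate 4 and a3a6KO replicates 1 and 2 were high and the other 4 libraries low, and the log2 fold change was 0.27 (SE 0.24, 95% interval -0.27 to 0.81). The sum of the 4 adipocyte markers was highest in the same 3 libraries, at 15430, 18513 and 13937. It was 2231 to 9240 in the other controls and 4813 in a3a6KO replicate 3, and it was nearly all Lep. The other 3 markers were highest in Ctrl replicate 3, with Adipoq at 782.2, Cidec at 361.7 and Plin1 at 72.5. In a3a6KO replicate 2, where Lims2 was highest, these had 5.27, 3.96 and 0.0. The part of adipocytes in the Lims2 values was not tested.

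Among the 9 kinases, scaffolds and LIM adaptors, 4 had groups that did not overlap (7.51% of all genes) and 2 an unadjusted p under 0.05 (6.32% of all genes). This role was not tested against the other members. Nexn encodes nexilin, a protein that binds actin filaments at adhesions and in muscle (chromosome 3, 152236986 to 152266320, minus strand, mm10). It had 1826, 1703, 1384 and 1791 in Ctrl against 1084, 1267 and 1196 in a3a6KO, so that the highest mutant lay under the lowest control. The means were 1676 ± 201 (SD, n = 4) and 1182 ± 92.5 (SD, n = 3). The log2 difference was -0.50 (SE 0.14, 95% interval -0.81 to -0.19), the largest in size among the members, with an unadjusted limma p of 0.00564 and an adjusted p of 0.551. Leaving out 1 library at a time gave -0.59 to -0.44.

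Fhl2, a LIM-only adaptor that shuttles between adhesions and the nucleus (chromosome 1, 43123071 to 43196762, minus strand), lay the other way. It had 1298, 882.3, 1070 and 1343 in Ctrl against 1422, 1473 and 1560 in a3a6KO. The mutants were close together and above every control, with means of 1148 ± 214 (SD, n = 4) in Ctrl and 1485 ± 70.1 (SD, n = 3). This gave a log2 difference of 0.39 (SE 0.16, 95% interval 0.02 to 0.76), with an unadjusted limma p of 0.0414 and an adjusted p of 0.768.

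Tes encodes testin, a LIM protein of focal adhesions and stress fibres (chromosome 6, 17065149 to 17105825, plus strand). It had 22563, 18189, 17853 and 18647 in Ctrl against 13381, 15037 and 17283 in a3a6KO. The gap between the groups was narrow beside the spread in each of them, and Ctrl replicate 1 stood above the other controls. The log2 difference was -0.34 (SE 0.16, limma adjusted p = 0.785), and -0.25 at its smallest when 1 library was left out. Tes lies within a short distance of Cav1 on the same chromosome and strand, and the fold change of Cav1 lay above 1.

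Ptk2 encodes FAK, the tyrosine kinase recruited to clustered integrins (chromosome 15, 73205105 to 73423282, minus strand). It had 1550, 1631, 1425 and 1468 in Ctrl against 1344, 1239 and 1388 in a3a6KO. The groups were separated by less than the spread within either, and the log2 fold change was -0.20 (SE 0.11, 95% interval -0.46 to 0.06), the smallest standard error among the members. Its partner kinase Src had 1496, 1163, 909.8 and 1127 against 931.3, 1048 and 1021, with a log2 difference of -0.21 (SE 0.17). Here the lowest library was a control, and the groups overlapped.

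Bcar1 encodes p130Cas, a scaffold that FAK and SRC phosphorylate when it is stretched. It had 3539, 3910, 4853 and 5025 in Ctrl against 5270, 4351 and 8917 in a3a6KO. A single mutant library stood far above the rest, and the log2 difference of 0.46 (SE 0.25, limma adjusted p = 0.792) came to 0.16 without a3a6KO replicate 3. Pxn, or paxillin, the scaffold that FAK binds, was also highest in that library, at 2395, where the other 6 lay between 1722 and 1981. Its log2 fold change was 0.15 (SE 0.14), and 0.02 at its smallest when 1 library was left out.

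The adaptors at the actin end had overlapping groups. Zyx, or zyxin, which gathers at strained filaments, had 10721, 8835, 9666 and 10229 in Ctrl against 10416, 9370 and 9738 in a3a6KO, with a log2 difference of -0.001 (SE 0.13, 95% interval -0.29 to 0.29). The row of Epha1, on the opposite strand, overlaps that of Zyx with a mean of 17.6% of its value, and the sources used here do not say whether the counting used strand. Vasp, which elongates filaments and binds zyxin, had 758.7 to 962.2 in Ctrl and 836.0 to 941.2 in a3a6KO, all within the control range. Pdlim7, outside the rule, had 2027, 1528, 1861 and 1617 in Ctrl against 1906, 1660 and 1416 in a3a6KO, a log2 difference of -0.08 (SE 0.15).

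Cav1 encodes caveolin-1, the coat protein of caveolae, membrane pits that flatten under tension. It had 48947, 46650, 66185 and 65745 in Ctrl against 57721, 66340 and 72271 in a3a6KO. Ctrl replicates 1 and 2 were low, the other controls lay among the mutants, and the log2 fold change was 0.22 (SE 0.21, limma adjusted p = 0.874). Endothelial cells also make much Cav1. The summed endothelial markers were higher in every mutant library, at 12285 to 18091 against 6219 to 9946 in Ctrl, and their part in the Cav1 values was not tested.

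The cytoplasmic actins Actb and Actg1 were among the most abundant members per kilobase of exon. In Ctrl, Actb stood at 44895 ± 6781 (SD, n = 4) and Actg1 at 20026 ± 2076 (SD, n = 4) normalised read counts per kilobase, and their control ranges did not overlap. The range of Actg1 overlapped that of Cav1, at 18408 ± 3408 (SD, n = 4). The 2 actin proteins are nearly the same and differ at the very start, so the first 45 coding bases are shown for each, with capitals at the 9 bases that differ. They are from GENCODE M21 on GRCm38, which is mm10, written along the coding strand. Actb lies at chr5:142905642-142905686 and Actg1 at chr11:120348047-120348091, each on the minus strand.
Actb: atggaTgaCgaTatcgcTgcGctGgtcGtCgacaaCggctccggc
Actg1: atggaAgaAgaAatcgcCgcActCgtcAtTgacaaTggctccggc
Over the whole coding sequence 128 of 1125 bases differ, an identity of 88.6%. Stretches of 50 bases found also in annotated transcripts of genes elsewhere made up 54.7% of Actg1, most of them in the annotated gene Gm12715, and 13.9% of Actb. The sources used here do not say how reads that fit several places were counted, so the level of Actg1 in particular is uncertain.

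Actb had 88222, 72886, 80363 and 103319 in Ctrl against 101811, 98316 and 73933 in a3a6KO, with the highest and the lowest library both in Ctrl. This gave a log2 difference of 0.08 (SE 0.21, limma adjusted p = 0.952). Actg1 had 39478, 33246, 41678 and 41963 in Ctrl against 44313, 41968 and 44658 in a3a6KO (chromosome 11, 120345688 to 120348499). Its groups did not overlap, but a3a6KO replicate 2 and Ctrl replicate 4 were 41968 and 41963, and the log2 fold change was 0.16 (SE 0.16, limma adjusted p = 0.874). The lack of overlap in Actg1 therefore rests on a gap far smaller than the spread in either group.

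Among the crosslinkers, Actn1 and Actn4 encode the non-muscle α-actinins, which tie filaments in parallel. Actn1 had 3197, 3529, 3678 and 3892 in Ctrl against 5649, 4227 and 3713 in a3a6KO. The log2 difference of 0.32 (SE 0.16, limma adjusted p = 0.789) came to 0.15 without a3a6KO replicate 1, which was the highest library. Actn4 was 15722 ± 1999 (SD, n = 4) per kilobase of exon in Ctrl, far above Actn1 at 940.5 ± 76.9 (SD, n = 4). It had 69613, 52410, 58618 and 66947 in Ctrl against 73021, 63864 and 77321 in a3a6KO, with overlapping groups and a log2 difference of 0.21 (SE 0.19). Flna, or filamin A, which joins crossing filaments and binds integrin tails, had 17044, 14915, 10623 and 14640 against 10407, 16663 and 13056. Its lowest libraries were a3a6KO replicate 1 and Ctrl replicate 3, as in Tln1, and the log2 fold change was -0.10 (SE 0.21).

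Myh9 and Myh10 encode the heavy chains of non-muscle myosins IIA and IIB, the motors of the cortex. Myh9 had 2632, 2847, 1447 and 2692 in Ctrl against 1848, 2360 and 2553 in a3a6KO. Ctrl replicate 3 stood apart from the other controls, and the log2 fold change was -0.06 (SE 0.24, limma adjusted p = 0.969). Myh10 had 589.4, 614.8, 448.0 and 631.7 against 430.0, 448.3 and 524.9, with the lowest control level with the mutants and a log2 difference of -0.28 (SE 0.16, limma adjusted p = 0.797).

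The small GTPases and the formin overlapped between the groups throughout. Rhob, an early-response GTPase of endosomes, had 1959, 2359, 3191 and 2255 in Ctrl against 2442, 1868 and 2382 in a3a6KO, a log2 difference of -0.12 (SE 0.18). Rhoc, which promotes contraction and motility, ran from 2077 to 2332 and from 2087 to 2464. Rac1, which drives branched actin at the cell edge, ran from 9405 to 12091 and from 9642 to 11083. None of these ranges left the groups apart, and the log2 fold changes of Rhoc and Rac1 were 0.04 (SE 0.12) and -0.07 (SE 0.15). Cdc42, which organises filopodia and polarity, had 2838 to 3711 in Ctrl and 3159 to 4014 in a3a6KO, with a log2 difference of 0.09 (SE 0.15). Diaph1, a formin that nucleates straight filaments when a small GTPase releases it, was low, at 151.6 to 214.8 and 139.8 to 215.4, with a log2 difference of -0.05 (SE 0.20).

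The monomer-binding proteins lay slightly above 1 in a3a6KO without passing any test. Cfl1, or cofilin, which severs old filaments, had 8964, 9698, 11142 and 11656 in Ctrl against 10767, 11042 and 12935 in a3a6KO, a log2 difference of 0.16 (SE 0.15). Pfn1, or profilin, which feeds monomers to growing ends, had 15618, 15572, 14982 and 17187 against 17398, 18405 and 15317. Its log2 fold change was 0.10 (SE 0.14), and -0.01 under quantile normalization. In each gene the groups overlapped.

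In order of level per kilobase of exon in Ctrl, Actb was followed by Actg1, Cav1, Actn4 and Pfn1, whose neighbouring ranges overlapped, and then by Ilk, Tes and Cfl1, the last of which stood at 4141 ± 499 (SD, n = 4). At the other end were Myh10 at 66.0 ± 9.69, Diaph1 at 31.5 ± 4.53 and Tln2 at 3.77 ± 1.35 (SD, n = 4 each). Of the 31 pairs of neighbours in this order, 21 had overlapping control ranges and so are not ordered beyond their spread. The 10 pairs with a gap include Actb over Actg1, Pfn1 over Ilk, Tes over Cfl1, Cfl1 over Rac1, and each step from Src down through Myh10 and Diaph1 to Tln2. Since Ilk and Cfl1 have stretches of 50 bases in annotated copies elsewhere, 13.5% and 8.26% of them, their levels carry the same doubt as those of the actins.

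The longest members lay low together in particular libraries. Of the members 5 have more than 7 kb of exon: Tln1, Tln2, Flna, Myh9 and Myh10. The limit was chosen after the values were seen, so the pattern is given as a description. In Ctrl replicate 3 all 5 lay below their own mean over the 7 libraries, by a median log2 deviation of -0.66 (range -0.71 to -0.22). In a3a6KO replicate 1 all 5 did so too, with a median of -0.31 (range -0.40 to -0.12). The 27 shorter members had medians of -0.02 and 0.08 in those libraries, with 15 and 10 of the 27 below 0. Their ranges were -0.255 to 0.46 in Ctrl replicate 3 and -0.407 to 0.526 in a3a6KO replicate 1, so some shorter members were low there too. In these libraries long genes as a whole lay the same way by less, since the 1319 tested genes over 7 kb had a median of -0.10 in Ctrl replicate 3, with 62.2% below 0, and -0.05 in a3a6KO replicate 1, with 55.1% below 0. In a3a6KO replicate 2 the members and long genes lay on opposite sides, with medians of 0.28 over the 5 (range -0.22 to 0.42) and -0.05 over the 1319. In Ctrl replicates 1 and 4, 0 of the 5 long members lay below their own mean. Lengths were found for 12331 of the 13717 tested genes with a symbol (89.9%) and for 32 of 32 members.

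Tln1 and Myh9 stood near the low end of comparable genes in Ctrl replicate 3. Among the 411 genes over 7 kb with a mean of at least 400, in Ctrl replicate 3, 2.92% had a lower deviation than Tln1, 3.65% than Myh9, 16.5% than Flna and 33.8% than Myh10. In a3a6KO replicate 1 the shares were 8.76% for Tln1, 14.1% for Myh9, 9.49% for Flna and 17% for Myh10. Each group holds 1 of these libraries. Without both libraries, 0 members were called in limma, 14 lay above a fold change of 1 and the median log2 fold change was -0.04, against 0.02 with them. Nexn then had a log2 fold change of -0.53, Myh10 of -0.33, Vcl of -0.25, Myh9 of -0.15 and Flna of -0.07. RNA quality values were not analysed here, and the part of RNA integrity in this pattern was not tested.

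**Figure D3:**
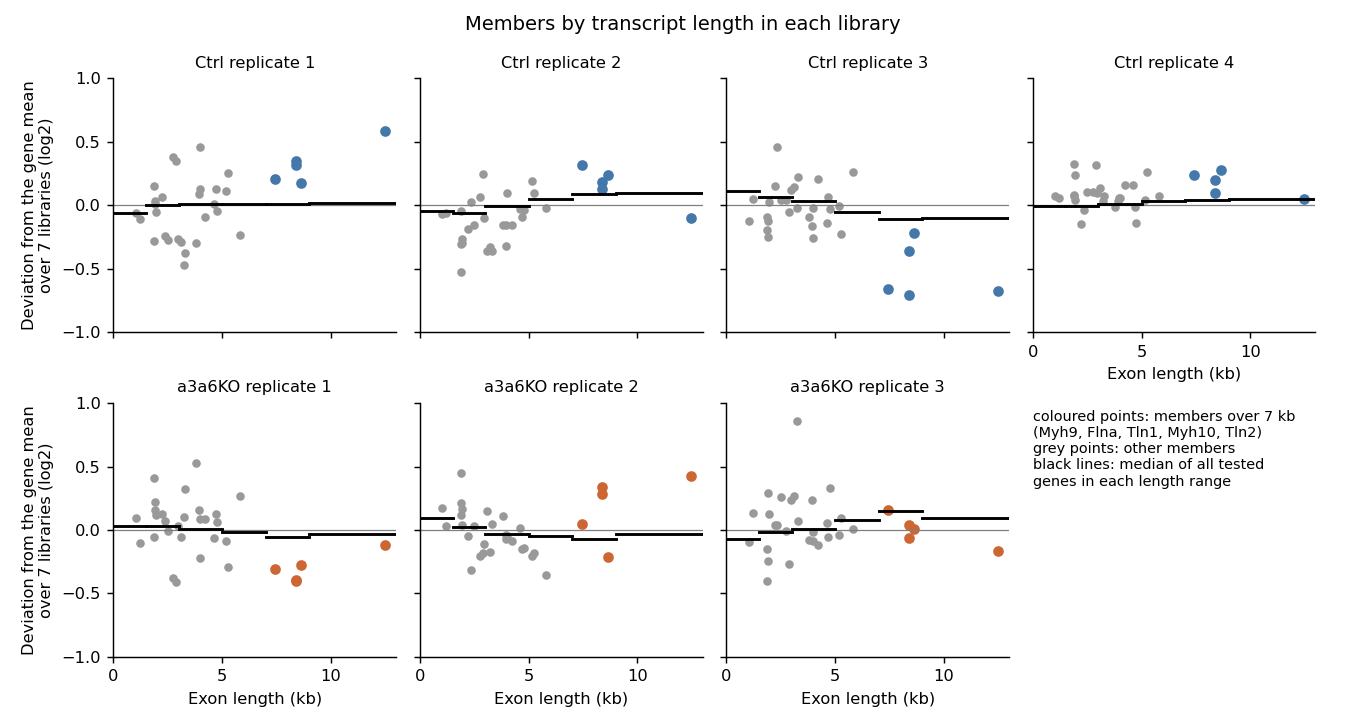
Each panel is a library, each point a member, placed by exon length in kb and by its log2 deviation from its own mean over the 7 libraries; black lines are medians of all tested genes in each length range. The 5 members over 7 kb, coloured, are all below 0 in Ctrl replicate 3 and in a3a6KO replicate 1.

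Ratios of related members within a library, which do not depend on its size factor, were compared for 6 pairs with a two-sided exact permutation test over the 35 ways to assign the 7 libraries, where the smallest possible p is 0.0286. After Benjamini-Hochberg adjustment over the 6 pairs, 1 pair at that p would have an adjusted p of 0.171, and 4 pairs would have to reach it for any to fall under 0.05, so the adjusted values (0.657 for each) could hardly pass. The groups overlapped in every pair. The ratio of Myh9 to Myh10, not corrected for length like the others here, ran from 3.23 to 4.63 in Ctrl and from 4.30 to 5.26 in a3a6KO, with a difference in mean log2 ratio of 0.22 (exact permutation p = 0.229). Lims1 against Lims2 ran from 0.70 to 1.18 in Ctrl and from 0.59 to 1.13 in a3a6KO, with a difference of -0.32 (exact permutation p = 0.314). For Actb against Actg1 the ratio ran from 1.93 to 2.46 and from 1.66 to 2.34, with a difference of -0.08 (exact permutation p = 0.657). The pairs Actn1 and Actn4, Tln1 and Tln2, and Rhob and Rhoc had differences of 0.11, -0.09 and -0.15 (exact permutation p = 0.6, 0.6 and 0.457). The coding sequences of the 5 pairs other than the actins are 71.4% to 80.5% identical, and the pairs share 0 to 73 stretches of 50 bases.

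**Figure D4:**
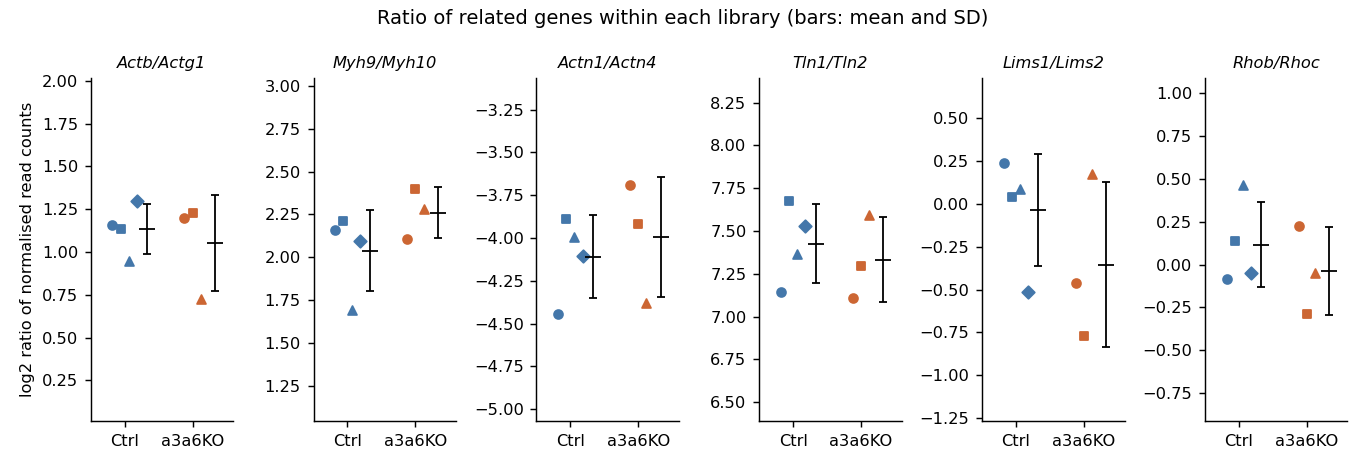
log2 ratio of normalised read counts of 6 pairs of related members within each library, in Ctrl (blue) and a3a6KO (orange), with the mean and SD of each group as black bars; each panel spans the same height of the log2 scale. The points of the groups overlap in each of the 6 panels.

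The promoters of the members were searched for 2 motifs that connect actin and adhesion to transcription: the CArG box bound by SRF, in which a run of A and T bases lies between CC and GG, and GGAATG, the core site of the TEAD factors. Windows of 250 bases before to 50 bases after the start came from RefSeq on GRCm38.p6, and 23 of the 32 members had one. Members without a window were not searched, so a member not named below need not lack the motif. Both strands were read. A CArG box can end in the GG that opens GGAATG, which none of the boxes shown does. A CArG box was found in 4 of the 23 members (17.4%), namely Vcl, Fermt2, Fhl2 and Actg1, against 1.81% of 27025 genes with a window and 1.63% of all 32851 windows. GGAATG was found in Vcl, Actn4, Flna, Myh10 and Pfn1, 5 of 23 (21.7%), against 16.6% of genes. A match is a stretch of letters and not evidence of binding.

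The 4 members with a CArG box lay on different sides of 1 in a3a6KO, so the 60 bases around each box are shown, 5′ to 3′ along the gene's strand with the box in capitals. Fhl2 has 2 start sites with a box each, numbered here by chromosome position. Along the gene, which is on the minus strand, the second lies upstream of the first. The log2 fold changes, given above with their errors, were -0.22 for Vcl, 0.26 for Fermt2, 0.39 for Fhl2 and 0.16 for Actg1.
Vcl, chr14:20929148-20929207, plus strand: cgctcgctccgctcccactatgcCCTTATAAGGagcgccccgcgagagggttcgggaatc
Fermt2, chr14:45530235-45530294, minus strand: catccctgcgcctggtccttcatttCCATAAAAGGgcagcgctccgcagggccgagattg
Fhl2 first site, chr1:43163962-43164021, minus strand: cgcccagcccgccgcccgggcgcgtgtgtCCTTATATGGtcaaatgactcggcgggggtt
Fhl2 second site, chr1:43196823-43196882, minus strand: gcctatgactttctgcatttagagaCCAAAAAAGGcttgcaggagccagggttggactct
Actg1, chr11:120348551-120348610, minus strand: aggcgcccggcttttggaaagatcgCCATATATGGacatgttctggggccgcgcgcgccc
The boxes begin 227, 204, 31, 96 and 90 bases before the start site, in the order listed.

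Other genes of the same machinery were read from 4 lists, and limma called 0 in each. Of the 42 adhesion adaptors 40 were tested, with 21 above and 19 below a fold change of 1 and a median log2 fold change of 0.01. At an unadjusted p under 0.05, 2 lay higher and 0 lower, or 5.0% of the list against 6.32% of all genes. The 3 with the smallest p were Tns4, a tensin that binds integrin tails, at 0.32 (SE 0.12), Pdlim5, a LIM adaptor of α-actinin, at 0.48 (SE 0.20), and Sorbs3, or vinexin, a vinculin partner, at 0.35 (SE 0.16). Tns4 had 1446, 1283, 1216 and 1244 in Ctrl against 1726, 1618 and 1521 in a3a6KO, without overlap, at a limma adjusted p of 0.718.

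Of the 46 actin filament regulators, 28 lay above and 18 below 1, with a median log2 fold change of 0.05, and 3 lay higher and 1 lower at an unadjusted p under 0.05, or 8.7% against 6.32% of all genes. The groups did not overlap in 6 of the 46 (13%), against 7.51% of all genes. Fscn1, or fascin, which bundles filaments in protrusions, had 367.5, 449.2, 626.1 and 714.1 in Ctrl against 1408, 1019 and 1128 in a3a6KO. Every mutant lay above every control, with means of 539 ± 159 (SD, n = 4) in Ctrl and 1185 ± 200.4 (SD, n = 3). The log2 difference was 1.17 (SE 0.24), with an adjusted p of 0.515 in limma, 0.505 in edgeR and 0.00962 in DESeq2, which called no other gene of the 4 lists. Fmnl3, a formin, had 109.4, 171.3, 133.1 and 240.6 in Ctrl against 252.7, 377.1 and 446.6 in a3a6KO, a log2 difference of 1.15 (SE 0.30, limma adjusted p = 0.551). Coro1c, a coronin of branched actin, had 701.9, 528.4, 569.2 and 659.6 against 462.3, 447.0 and 443.0, a log2 difference of -0.44 (SE 0.14, limma adjusted p = 0.662). These 3 genes are among the 6 without overlap. Fmnl3 is known from endothelial cells as well. The summed endothelial markers were also higher in these 3 mutant libraries, with a median log2 fold change of 1.02 over the 18 markers. DESeq2 called some of them, such as Egfl7 (DESeq2 adjusted p = 1.37e-05) and Cdh5 (0.00266), and not others, such as Kdr (0.195). The part of endothelial cells in the Fscn1 and Fmnl3 values was not tested.

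Of the 25 other small GTPase and non-muscle myosin genes, 12 lay above and 13 below 1, with a median of -0.01 and 1 in each direction at an unadjusted p under 0.05, or 8.0% against 6.32% of all genes. These were Rhog, a Rac-like GTPase, at 0.37 (SE 0.12), and Arhgap1, which switches small GTPases off, at -0.45 (SE 0.18). The third by p was Rhoq at -0.31 (SE 0.19). Rhog had 718.3 to 884.3 in Ctrl and 1007 to 1082 in a3a6KO, and Arhgap1 5238 to 8363 and 4245 to 5150, without overlap in either.

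The 6 genes of the caveolar coat other than Cav1 lay 3 above and 3 below 1, with a median of -0.02 and 0 at an unadjusted p under 0.05. Cavin1, the cavin needed to form caveolae, had 11841, 11881, 13567 and 11606 in Ctrl against 10609, 9772 and 10848 in a3a6KO, a log2 difference of -0.23 (SE 0.13). Ehd2, an ATPase at the neck of caveolae, had 5016, 4524, 6989 and 4124 against 3483, 3961 and 4058, a log2 difference of -0.40 (SE 0.19). These 2 of the 6 lay lower in a3a6KO without overlap, as did 3.51% of all genes, and neither passed the test, at limma adjusted p = 0.797 and 0.785. Cavin3 had a log2 difference of 0.17 (SE 0.18).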

How the data were processed

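RNA was prepared with a SMARTer v4 library protocol, per the labels' protocols, from 4 Ctrl and 3 a3a6KO samples, grouped by genotype label. The deposited signal values are gene counts normalised with DESeq2 by the authors, per the submitters' processing notes, which also name STAR 2.4.0 and build mm10. The sources used here do not give the read counter or its strand setting. Values above 0 were whole multiples of a step per library, within 0.01 of a read. Of the recovered counts from 1 to 20, 61.8% to 63.8% were even. Rows without a symbol held 5.35% of reads.

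limma 3.58.1 (R 4.3.3), with a trend, was fitted to log2(value + 1) of 16889 genes, two-sided, adjusted by Benjamini-Hochberg and called under 0.05. edgeR 4.0.16 and DESeq2 1.42.0 on recovered reads, other pseudocounts, filters and scalings, library weights and leaving out each library were alternatives. The members and lists were chosen with earlier results of these data known. Named genes are the members and, per pathway list, the 3 with the smallest p. Levels per kilobase used exon lengths of GENCODE M21. In simulated counts for 16889 genes, limma recovered 68.1% of 4-fold and 26.6% of 2-fold changes. Of the 167 genes called there by DESeq2, 40 were unchanged, against 9 of 100 in limma and 11 of 103 in edgeR. This was 1 simulated set, whose settings need not match these data. A call by DESeq2 alone is therefore read with caution, and its error rate in these data was not tested.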

Additional observations from a re-analysis of the deposited data

Results flagged for a closer look

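In 5 of the 61 groups of 4 control libraries examined, the gap between an extreme library and its nearest neighbour exceeded Dixon's 95% critical share of the group's range, where chance flags about 1 in 20. Lims2 had 2807 in Ctrl replicate 4, where the other controls had 1816 to 1959. Pxn had 1725 in Ctrl replicate 4, below 1841 to 1856. Tes had 22563 in Ctrl replicate 1, above 17853 to 18647. Myh9 had 1447 in Ctrl replicate 3, below 2632 to 2847. Cavin1 had 13567 in Ctrl replicate 3, above 11606 to 11881.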

How the results depend on the processing

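Of 543 recomputed member values, 500 kept their direction and side of the threshold and 43 turned sign, and 17 of the 32 members never turned. DESeq2 called 72 genes where limma called 0, of which 1 was in the pathway lists (Fscn1, log2 fold change 1.14). In the simulated counts, 40 of the 167 calls of DESeq2 were of unchanged genes. Signs turned for Parva with TMM (-0.000128), quantile normalization (-0.053), library weights (-0.023), edgeR (-0.0020) and DESeq2 (-7.2e-05). They turned for Rhoc (-0.00960) and Pfn1 (-0.010) with quantile normalization, and with library weights for Rhoc (-0.0045), Lims1 (0.018), Zyx (0.051), Pdlim7 (0.050), Rac1 (0.00596) and Diaph1 (0.026). Library weights gave 5 members at an unadjusted p under 0.05, against 2, and the 2-library exclusion described next 1. The share of all genes is not given here for either fit, so these counts are not read as a result about the members. With all 31483 genes above 0 in any library tested, 1777 had an unadjusted p under 0.05 in limma, against 1068 of 16889. The larger count therefore comes with a larger number of genes tested. Without Ctrl replicate 3 and a3a6KO replicate 1 together, chosen after seeing the data, the members' median was -0.041, Tln2 -0.048, Parva -0.012, Actb -0.033 and the Actn1/Actn4 difference -0.00150. The causes were not tested.

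Leaving out 1 library or those 2 gave ranges of -0.25 to 0.19 for Tln1, -0.13 to 0.29 for Tln2, -0.052 to 0.041 for Zyx, -0.29 to 0.079 for Myh9, -0.28 to 0.065 for Flna, -0.043 to 0.057 for Parva, -0.12 to 0.014 for Lims1, -0.12 to 0.0098 for Ilk, -0.033 to 0.23 for Actb, -0.21 to 0.020 for Rhob, -0.020 to 0.12 for Rhoc, -0.0030 to 0.17 for Cdc42, -0.19 to 0.12 for Diaph1, -0.19 to 0.026 for Pdlim7 and -0.0099 to 0.37 for Cavin3. The ranges were -0.040 to 0.30 for Actn1/Actn4, -0.23 to 0.018 for Tln1/Tln2, -0.22 to 0.079 for Actb/Actg1 and -0.041 to 0.072 for the members' median. Replicate numbers here follow the order of the samples in each group, since the sample titles hold none. No paired analysis was possible because the labels do not pair libraries between the groups.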

Other observations

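The 32 members together made up 2.4% to 2.73% of all normalised counts in the Ctrl libraries and 2.49% to 2.92% in the a3a6KO libraries, and 5 genes held 64.8% to 71.0% of that sum. Ctrl replicate 1 and a3a6KO replicate 3 each held the highest value of 9 members, and Ctrl replicate 2 the lowest of 8.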
